A study of Mus musculus with 20 samples.

Results

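Hba-a1 and Hba-a2 are the adult alpha-globin genes of the mouse, a pair of near-identical copies on chromosome 11. Their introns were found by matching the transcript names of the deposited intron tables to the GENCODE mouse annotation. This gave 4 introns, 2 per gene, of 68794 introns of 8392 genes. The data came from MEL cells, a mouse erythroleukemia line that models a red cell precursor arrested before maturation. Both groups used here were wild type: 4 long-read samples of cells without inducer, and 4 of cells grown in 2% DMSO for 5 days, which starts their maturation. Each group held 2 replicate numbers, each run on 2 sequencing instruments. RNA was taken from chromatin and depleted of polyadenylated and ribosomal RNA, so the reads are mostly of transcripts still being made. The tables hold 1 line per intron and condition with the samples of a group added together, called the uninduced and the induced pool below. No spread between replicates could therefore be computed, every interval below is a 95% interval of counting error only, and every test compares 2 pools of libraries or 2 introns of a pool. The remaining 12 of 20 samples, which carry an integrated human HBB gene or were made by run-on sequencing of engaged polymerases (PRO-seq), were not analysed here.

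Hemoglobin is built from alpha-type and beta-type chains around heme, and both alpha copies give the same alpha chain. Each copy has 3 exons and 2 short introns, and each intron is removed in 2 steps. The first step cuts the RNA at the 5′ splice site and leaves the upstream exon free, which is a splicing intermediate. The second step joins that exon to the next one. A nascent long read can thus be spliced or unspliced at an intron, or it can end as an intermediate at the last base of the upstream exon. Globin transcription rises to a very high level as red cell precursors mature.

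All 4 introns lie between coding exons on the plus strand of chromosome 11 (mm10). Hba-a1 intron 1 spans chr11:32283802-32283923 and Hba-a1 intron 2 spans chr11:32284129-32284262. Hba-a2 intron 1 spans chr11:32296619-32296740 and Hba-a2 intron 2 spans chr11:32296946-32297079. Intron 1 is 122 nt and intron 2 is 134 nt long in both copies. The splice sites decide where the cuts fall, so they are shown first, with the GT that opens and the AG that closes each intron in capitals. The 9-base and 23-base sites listed by the authors had the same letters in both copies:
Intron 1 5′ splice site: aagGTgaga
Intron 1 3′ splice site: ctcttctctccttctcccAGgat
Intron 2 5′ splice site: aagGTatgc
Intron 2 3′ splice site: tgtccactttgtctccgcAGctc

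The copies were also compared along the GENCODE transcripts (GRCm38), because a read can be given to a copy by its letters only where the copies differ. Intron 1 could be read from base 10 to its last base, from transcripts annotated as retaining it, and its 113 bases were the same in both copies. In Hba-a1 they lie at chr11:32283811-32283923, and the closing AG is in capitals:
Intron 1 of Hba-a1 and Hba-a2: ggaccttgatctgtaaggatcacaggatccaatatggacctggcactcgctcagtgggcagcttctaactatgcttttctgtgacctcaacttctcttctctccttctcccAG
Exon 1 (130 shared bases), intron 1 from base 10 and exon 2 (205 bases) held 0 differences over 448 compared bases. Exon 3 held 1 difference over 203 shared bases, C81T, counted from the first base of exon 3, with the Hba-a1 base first. It lies at position 32284343 in Hba-a1 and 32297160 in Hba-a2, in codon 127 of 142, and changes 0 residues. It is the one letter found here that tells the copies apart, and it is in capitals in the stretches around it (chr11:32284331-32284355 and chr11:32297148-32297172):
Hba-a1 exon 3: tgcctctctggaCaaattccttgcc
Hba-a2 exon 3: tgcctctctggaTaaattccttgcc
The inner part of intron 2 was not compared. A molecule that ends at or before the last base of exon 2, which includes every intermediate of intron 2, thus held no letter among those compared that names its copy. How the authors divided such reads between the copies is not given in the sources used here. Values of the separate copies are given below as deposited, with the sum over both copies beside them.

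Alpha-globin reads made up a larger share of the induced than of the uninduced pool at all 4 introns. Without inducer the 4 introns held 232 of 416379 intron observations (0.0557%), where a read that spans 2 introns counts at both. After induction they held 2597 of 279371 (0.930%). Ranked by reads among all introns, Hba-a1 intron 1 was 308th and Hba-a1 intron 2 was 289th in the uninduced pool, and they were 1st and 2nd in the induced pool. Hba-a2 intron 1 went from rank 4168 to rank 4, and Hba-a2 intron 2 from rank 15435 to rank 49.

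Hba-a1 intron 1 had 101 reads before and 1099 after induction, a share of the pool 16.2 times as high (interval 13.2 to 20.1). Hba-a1 intron 2 had 108 and 787 reads, a share 10.9 times as high (8.87 to 13.4). Hba-a2 intron 1 had 17 and 536 reads, a share 47.0 times as high (29.1 to 81.3). Hba-a2 intron 2 had 6 and 175 reads, a share 43.5 times as high (19.6 to 120.1). With both copies added, the share was 20.7 times as high at intron 1 (17.1 to 25.1) and 12.6 times as high at intron 2 (10.3 to 15.4). All 4 introns were thus past a 4-fold higher share, as were 478 of 7614 introns with at least 20 reads over both pools (6.28%). There is 1 pool per condition and no test of these folds.

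The 11 erythroid marker genes on the list all had reads in at least 1 pool, and together they went from 1288 to 8668 observations, in pools of 416379 and 279371. The list did not move evenly: Slc4a1, the anion exchanger of the red cell membrane, went from 0 to 817, while the transcription factors Gata1 and Klf1 had 91 and 9 observations in the uninduced and 128 and 11 in the smaller induced pool. Of 6 myeloid markers only Spi1 was seen, with 9 reads before and 0 after induction, and 0 of 4 lymphoid markers were seen. The part of this shift in the alpha-globin results was not tested. More maturing cells in the culture and more globin RNA per cell cannot be told apart in these bulk samples.

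**Figure D1:**
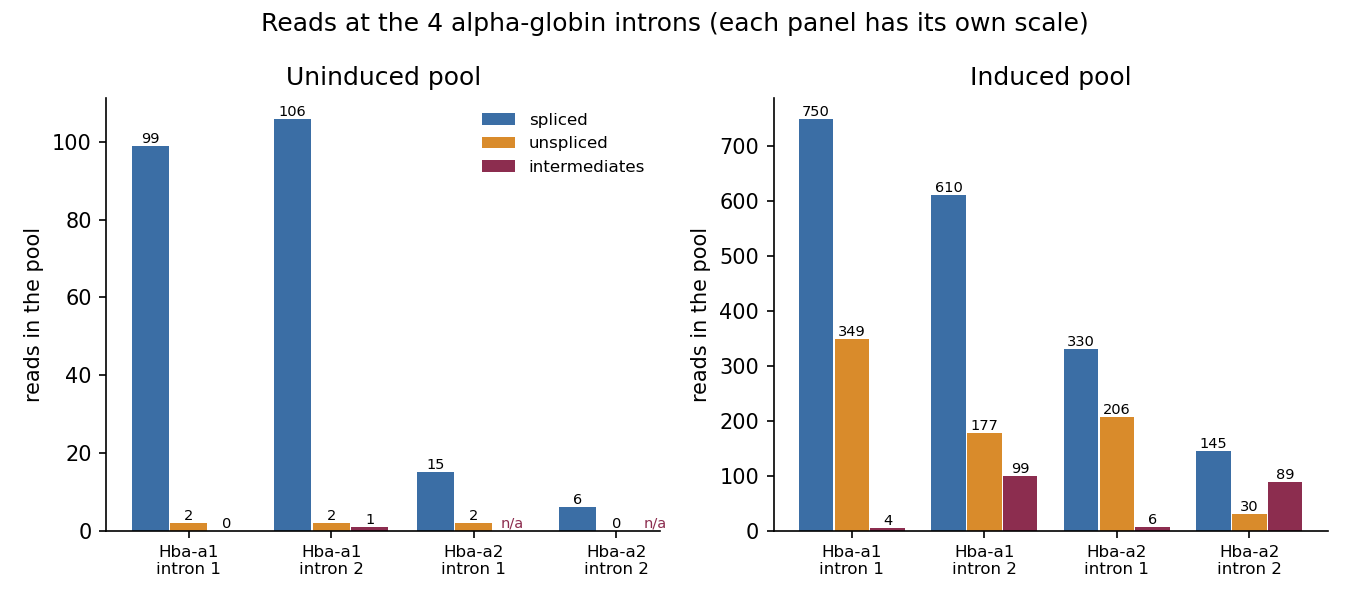
Reads at each alpha-globin intron in the uninduced (left) and induced (right) pool, on separate linear scales; bars are the deposited numbers of spliced, unspliced and intermediate reads, and n/a marks introns with no intermediate value used. Unspliced reads number 0 to 2 per intron on the left and 30 to 349 on the right, and intermediates reach 99 and 89 at intron 2 of the induced pool.

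Unspliced alpha-globin reads were almost lacking before induction and common after it. Co-transcriptional splicing efficiency (coSE) is the number of spliced reads divided by spliced plus unspliced reads, so 1 means that every read was spliced. At Hba-a1 intron 1 the uninduced pool had 99 spliced and 2 unspliced reads, and the induced pool had 750 and 349. Its coSE fell from 0.980 (0.931 to 0.995) to 0.682 (0.654 to 0.709), a difference of -0.298 (-0.329 to -0.241). This passed a two-sided Fisher's exact test with Benjamini-Hochberg adjustment over all introns with at least 10 reads in both pools (adjusted p = 9.37e-10).

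At Hba-a1 intron 2 the counts were 106 spliced and 2 unspliced reads, then 610 and 177. Its coSE fell from 0.981 (0.935 to 0.995) to 0.775 (0.745 to 0.803), a difference of -0.206 (-0.240 to -0.152). It passed the same Fisher's exact test with Benjamini-Hochberg adjustment (adjusted p = 5.33e-06). At both introns of Hba-a1 the intervals of the pools did not overlap.

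Hba-a2 gave less evidence, because few of its reads came from uninduced cells. At Hba-a2 intron 1 the counts were 15 spliced and 2 unspliced reads, then 330 and 206, and coSE was 0.882 (0.657 to 0.967) and 0.616 (0.574 to 0.656). The difference was -0.267 (-0.361 to -0.0374) and did not pass Fisher's exact test with Benjamini-Hochberg adjustment (adjusted p = 0.553). At Hba-a2 intron 2 there were 6 spliced and 0 unspliced reads, under the minimum of 10, and then 145 and 30, a coSE of 0.829 (0.766 to 0.877). A count of 0 in 6 reads allows an unspliced share of up to 0.5.

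Of the 3 alpha-globin introns tested, 2 fell and none rose. Among all 4403 introns tested, 71 (1.61%) were called in either direction and 55 (1.25%) were lower in the induced pool, and the median change was 0. With both copies added, coSE at intron 1 was 0.966 (118 reads) and then 0.661 (1635 reads), a difference of -0.306 (-0.337 to -0.251). At intron 2 it was 0.982 (114 reads) and then 0.785 (962 reads), a difference of -0.198 (-0.228 to -0.147). In absolute numbers, unspliced reads at intron 1 of both copies went from 4 to 555, a share of the pool 207 times as high (80.3 to 762). Spliced reads there went from 114 to 1080, a share 14.1 times as high (11.6 to 17.3). So spliced alpha-globin reads became more frequent as well, while their fraction became smaller.

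**Figure D2:**
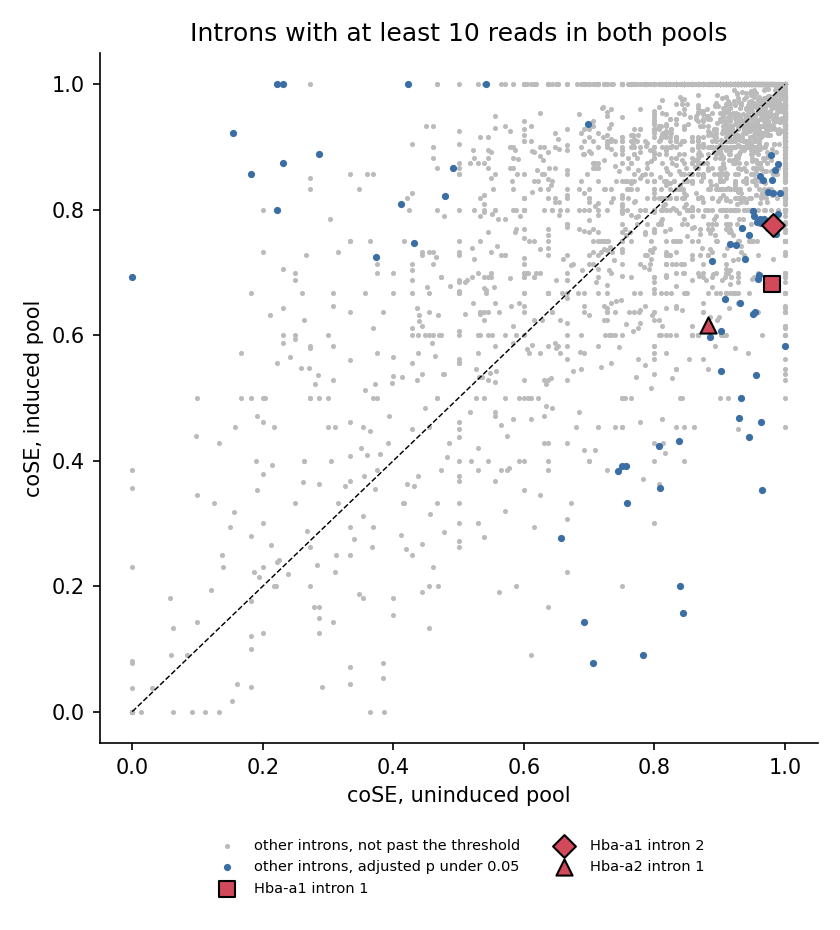
coSE of 4403 introns with at least 10 reads in both pools, uninduced pool on the horizontal and induced pool on the vertical axis; blue points passed Fisher's exact test with adjusted p under 0.05 and the dashed line marks equal values. The 2 Hba-a1 introns lie near 0.98 on the horizontal axis and at 0.682 and 0.775 on the vertical axis, and Hba-a2 intron 1 lies at 0.882 and 0.616.

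The 2 introns of a copy were then compared within a pool, each gene's intron 1 against its intron 2. A read that spans both introns counts in both arms, so the arms share molecules, while the tests and intervals of these differences, those of intermediates included, treat them as independent. In the uninduced pool Hba-a1 intron 2 exceeded intron 1 in coSE by 0.00128 (-0.0474 to 0.0526), with an adjusted p of 1 by Fisher's exact test. Intron 2 was called higher in 34 of 1222 genes of that pool (2.78%). In the induced pool intron 1 held the larger share of unspliced reads in both copies. In Hba-a1 31.8% of reads were unspliced at intron 1 and 22.5% at intron 2, and coSE was higher at intron 2 by 0.0927 (0.0520 to 0.132). In Hba-a2 the unspliced shares were 38.4% and 17.1%, and coSE was higher at intron 2 by 0.213 (0.138 to 0.277). Both passed Fisher's exact test with Benjamini-Hochberg adjustment over genes (adjusted p = 0.000293 for Hba-a1 and 4.43e-06 for Hba-a2). Of 811 genes, 30 (3.7%) were called with intron 2 higher, and 17 with intron 2 lower. Of the beta-globin genes, Hbb-bs had 3 of 453 reads spliced at intron 1 and 266 of 753 at intron 2, a difference of 0.347 that passed (adjusted p = 5.74e-56, Fisher's exact test). Hbb-bt had coSE of 0.277 at intron 1 and 0.384 at intron 2, which did not pass (adjusted p = 0.321, Fisher's exact test).

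Counted alpha-globin intermediates lay almost wholly at intron 2. An intermediate of intron 1 is exon 1 alone, with 130 bases shared by the copies. One of intron 2 also holds the 205 bases of exon 2. How well molecules of these lengths were recovered was not tested. The deposited measure NIC is the number of intermediates divided by intermediates plus spliced reads. Hba-a1 intron 1 had 4 intermediates beside 750 spliced reads in the induced pool, a NIC of 0.00531 (0.00206 to 0.0136). Hba-a1 intron 2 had 99 beside 610, a NIC of 0.140 (0.116 to 0.167). Hba-a2 intron 1 had 6 beside 330, a NIC of 0.0179 (0.00821 to 0.0384). Hba-a2 intron 2 had 89 beside 134, a NIC of 0.399 (0.337 to 0.465). NIC was higher at intron 2 than at intron 1 by 0.134 (0.109 to 0.162) in Hba-a1 and by 0.381 (0.316 to 0.447) in Hba-a2. With both copies added it was 0.00917 (10 of 1090) at intron 1 and 0.202 (188 of 932) at intron 2, a difference of 0.193 (0.167 to 0.220).

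The differences within a copy passed Fisher's exact test with Benjamini-Hochberg adjustment over 390 genes with both introns listed (adjusted p = 2.07e-25 for Hba-a1 and 2.87e-31 for Hba-a2). Intron 2 was called higher in 7 of those genes (1.79%) and lower in 0, where 16 genes passed an unadjusted p of 0.05. Besides both alpha copies, the called genes were Hbb-bt, Hbq1b, Apol11b, Ermap and Uba7. Hbq1b, a theta-globin gene of the alpha cluster, had 0 intermediates of 55 reads at intron 1 and 6 of 17 at intron 2. Hbb-bt had 0 of 75 and 23 of 74. Hbb-bs had 0 of 3 at intron 1 and 8 of 274 at intron 2, a NIC of 0.0292 (0.0149 to 0.0565), and was not called. Few intermediates at intron 1 were not particular to the globin genes. In the induced pool, Pkhd1l1 intron 1 had 0 intermediates of 243 reads and Ank1 intron 1 had 0 of 196. Not all first introns lacked them, as Btg2 intron 1 had 7 of 99.

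**Figure D3:**
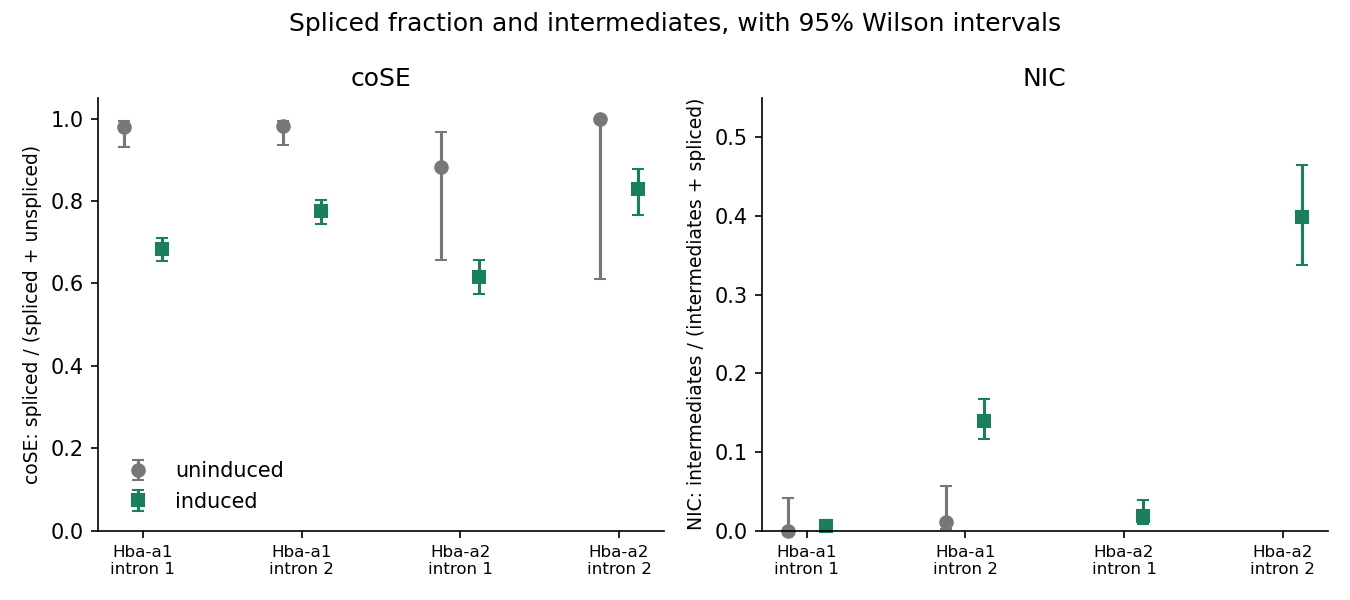
coSE (left) and NIC (right) of the 4 alpha-globin introns, circles for the uninduced and squares for the induced pool, with 95% Wilson intervals. Induced coSE lies between 0.616 and 0.829, with intron 2 above intron 1 in both copies, and induced NIC is 0.140 and 0.399 at intron 2 against 0.00531 and 0.0179 at intron 1.

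Before induction, intermediates of Hba-a1 were rare at both introns. Intron 1 had 0 of 89 reads, which allows a NIC of up to 0.0337, and intron 2 had 1 of 96, a NIC of 0.0104 (0.00184 to 0.0567). The induced NIC of Hba-a1 intron 2 was higher by 0.129 (0.0773 to 0.158), with an adjusted p of 0.0440 by Fisher's exact test with Benjamini-Hochberg adjustment. Of 2039 introns listed in both pools 2 were called higher (0.0981%), and the other was Rpl41 intron 3. The chi-square test in place of Fisher's gave Hba-a1 intron 2 an adjusted p of 0.299, which did not pass, and with the copies kept apart its adjusted p ranged from 0.0140 to 0.299 over the settings tried. Intron 1 of Hba-a1 did not pass the exact test (adjusted p = 1). The Hba-a2 introns, with 17 and 6 uninduced reads, were tested in the induced pool alone.

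Within the induced pool, intron 2 of the alpha-globin genes was among the introns richest in intermediates. Of 332 introns with at least 50 spliced and intermediate reads, with a median NIC of 0.0179, 23 were higher than Hba-a1 intron 2 and 5 were higher than Hba-a2 intron 2. The value of both copies added was exceeded by 14. By number, Hba-a1 intron 2 had 99 intermediates, where Alas2 intron 5, in the gene of the first enzyme of heme synthesis, had 183. The 4 alpha-globin introns supplied 198 of 3496 intermediates of the induced pool (5.66%) and 2.37% of its spliced reads in the same table.

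Counting intermediates as molecules whose intron is not yet removed changed the comparison of the introns. With spliced, unspliced and intermediate reads as the total, both copies added, 1080 of 1645 molecules (65.7%) were spliced at intron 1 and 755 of 1150 (65.7%) at intron 2. The difference between the introns was -1.32e-05 (-0.0359 to 0.0356). The reads not yet spliced differed in kind: at intron 1 33.7% of all were unspliced and 0.608% were intermediates, and at intron 2 18% were unspliced and 16.3% were intermediates. In Hba-a1 the spliced fraction was 0.680 at intron 1 and 0.688 at intron 2, a difference of 0.00852 (-0.0327 to 0.0494), with an adjusted p of 1 by Fisher's exact test. In Hba-a2 it was 0.609 and 0.549, a difference of -0.0596 (-0.132 to 0.0125), with an adjusted p of 0.680 by Fisher's exact test. The higher coSE of intron 2 was thus not seen once intermediates entered the total. This comparison takes intermediates of intron 1, which are exon 1 alone, to be recovered as well as those of intron 2. That was not tested. Whether the deposited unspliced reads already hold some intermediates is not stated.

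**Figure D4:**
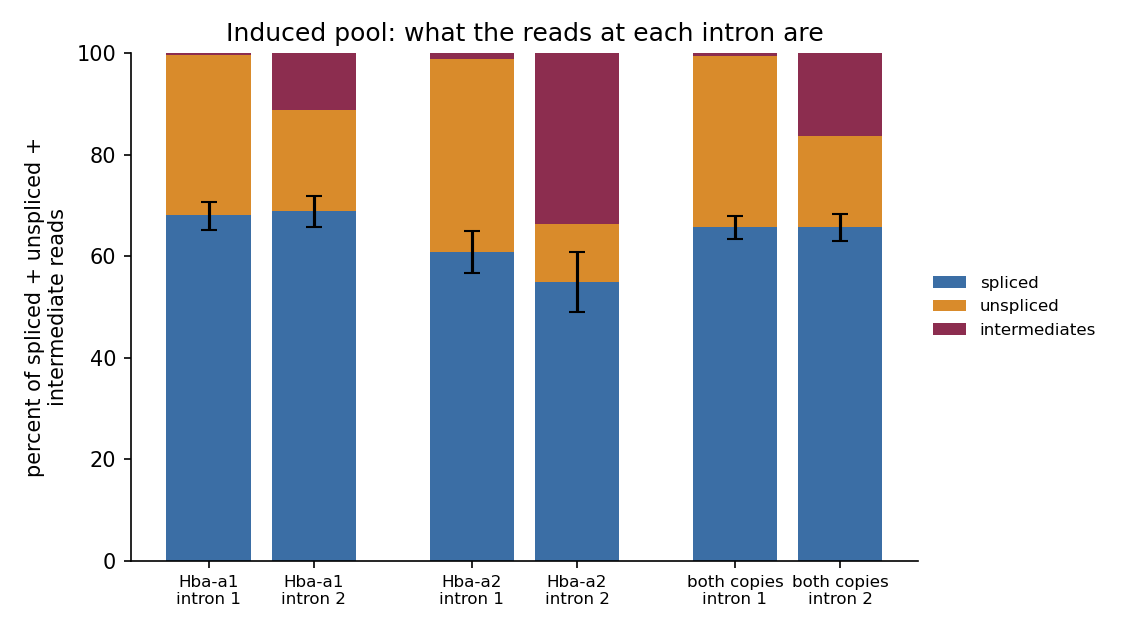
Percent of spliced, unspliced and intermediate reads at each alpha-globin intron of the induced pool, for each copy and for both copies added; error bars are 95% Wilson intervals of the spliced percent. The spliced part of both copies added is 65.7% at intron 1 and at intron 2, while the rest is mostly unspliced at intron 1 and 18% unspliced with 16.3% intermediates at intron 2.

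Reads of intron 2 were fewer than those of intron 1 in both copies after induction, and in Hba-a2 already before it. In the induced pool intron 2 had 0.716 reads per read of intron 1 in Hba-a1 and 0.326 in Hba-a2, counting spliced and unspliced reads. In the uninduced pool the ratio was 1.07 in Hba-a1 and 0.353 in Hba-a2, the latter on 6 and 17 reads. With both copies added the ratio was 0.588 in the induced and 0.966 in the uninduced pool. The median over genes with at least 20 reads at intron 1 was 0.968 in the induced pool (374 genes) and 0.962 in the uninduced pool (633 genes). Of the 374 genes, 35 had a lower ratio than both alpha copies added. Whether intermediates of intron 2 are among the reads counted at intron 1 is not stated.

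The copies were compared intron by intron, as the difference of Hba-a2 from Hba-a1. At intron 1 of the induced pool coSE was lower in Hba-a2 than in Hba-a1, by -0.0668 (-0.117 to -0.0177). At intron 2 it was 0.0535 higher in Hba-a2, with an interval that held 0 (-0.0151 to 0.111), and with intermediates counted as not spliced it was lower in Hba-a2, by -0.139 (-0.206 to -0.0726). NIC at intron 2 was higher in Hba-a2 by 0.259 (0.192 to 0.329), and at intron 1 by 0.0126 with an interval that held 0 (-0.00015 to 0.0334). In the uninduced pool the intervals of both copy differences in coSE held 0, at 17 and 6 reads of Hba-a2.

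The share of reads placed on Hba-a2 depended on the kind of read. At intron 2 of the induced pool Hba-a2 held 145 of 755 spliced reads, or 19.2% (16.6 to 22.2). It held 30 of 207 unspliced reads, or 14.5% (10.3 to 19.9), and 89 of 188 intermediates, or 47.3% (40.3 to 54.5). The interval of the intermediates did not overlap those of the spliced and unspliced reads, and it held 50, an equal share. At intron 1 Hba-a2 held 30.6% of 1080 spliced reads (27.9 to 33.4), 37.1% of 555 unspliced reads (33.2 to 41.2) and 6 of 10 intermediates.

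Spliced reads of intron 2 enter exon 3, but hold C81T only if they extend to base 81 of that exon. How many did was not examined. Intermediates of intron 2 end with exon 2, within the stretch with 0 differences. The part of read placement in the copy differences was not tested. Of all spliced and unspliced reads, Hba-a2 held 14.4% (9.19 to 21.9) at intron 1 and 5.26% (2.43 to 11.01) at intron 2 in the uninduced pool. In the induced pool it held 32.8% (30.6 to 35.1) and 18.2% (15.9 to 20.8). The intervals of the pools did not overlap at either intron, and in both pools the share was smaller at intron 2.

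**Figure D5:**
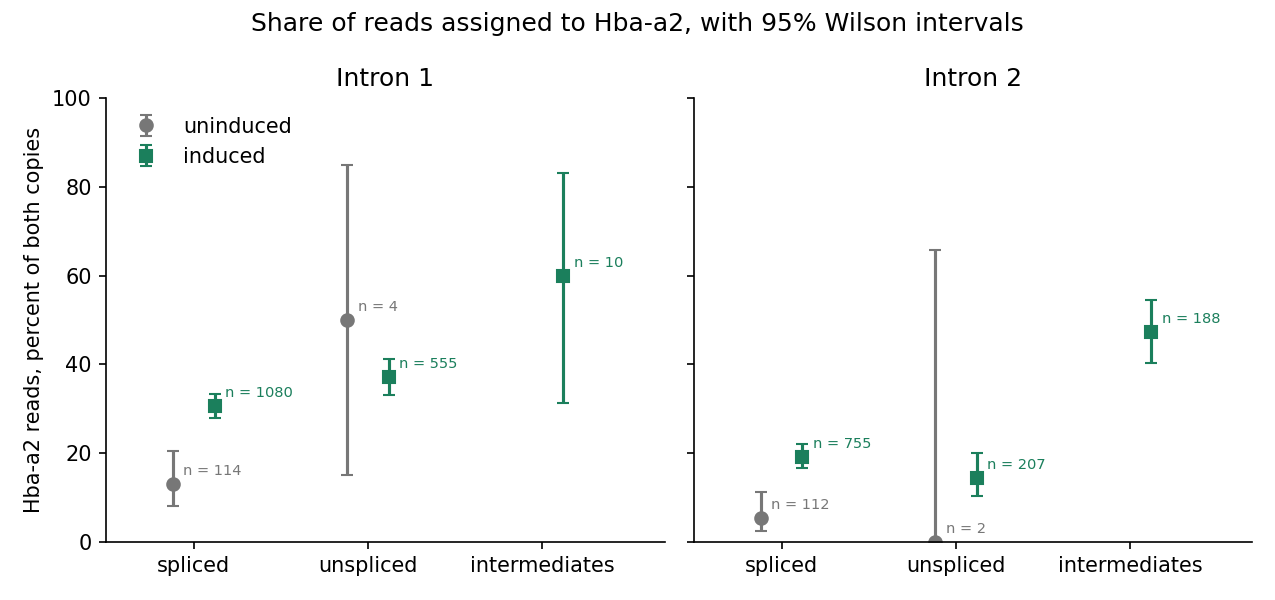
Percent of reads of both copies that were placed on Hba-a2, by kind of read, for intron 1 (left) and intron 2 (right), circles for the uninduced and squares for the induced pool, with 95% Wilson intervals and the number of reads. At intron 2 of the induced pool intermediates lie at 47.3%, above spliced reads at 19.2% and unspliced reads at 14.5%.

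By the deposited scores, the alpha-globin introns do not have weak splice sites. The 5′ splice site score was 8.68 at intron 1 and 9.55 at intron 2, above 46.3% and 65.9% of 6537 scored introns. The 3′ splice site score was 11.14 and 11.61, above 85.9% and 90.3%. Among the 20 intron bases of the 3′ splice site, 90% were C or T at intron 1 and 70% at intron 2, where the median intron had 70%. GC content was 49.2% at intron 1 and 64.2% at intron 2, and the latter exceeded 98.5% of introns. Both introns are short beside a median of 951 nt. Since each of these values was the same in both copies, none of them separates Hba-a1 from Hba-a2.

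Of other genes' introns sharing the 5′ splice site letters, with at least 10 induced reads, most had a higher coSE than the Hba-a1 introns. So did most introns of any site: of 142 with at least 100 induced reads, 25 lay below Hba-a1 intron 1 and 33 below Hba-a1 intron 2. The aagGTgaga of intron 1 stood at 28 other introns, of which 15 had at least 10 induced reads, with a median coSE of 0.928, and 2 of those lay below Hba-a1 intron 1. Their intermediates made up 9 of 238 reads (3.78%) at the 9 introns listed for the induced pool, and 2 of the 9 had a higher NIC than Hba-a1 intron 1. The aagGTatgc of intron 2 stood at 11 other introns, of which 8 had that many reads, with a median coSE of 1, and 0 lay below Hba-a1 intron 2. At 5 of them listed for the induced pool, 3 of 129 reads (2.33%) were intermediates, and 0 of the 5 had a higher NIC than Hba-a1 intron 2. The 23-base 3′ splice sites stood at 0 other introns in the table.

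Among short introns, alpha-globin coSE was not extreme. Of 67 introns of up to 150 nt with at least 50 induced reads, with a median coSE of 0.780, 22 lay below Hba-a1 intron 1 and 32 below Hba-a1 intron 2. In the uninduced pool the median of 129 such introns was 0.940, and 96 and 98 lay below the 2 Hba-a1 introns. Among the 142 introns of any length with at least 100 induced reads the median was 0.964, and 25 lay below Hba-a1 intron 1.

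The introns most like those of Hba-a1 were found by the distance between pairs of coSE values, uninduced and induced, over 1328 introns of other genes with at least 20 reads in each pool. They are given as a description, since the values themselves chose them. Nearest to Hba-a1 intron 1 were Eno1 intron 4 (0.976 and 0.680), Rps28 intron 2 (0.959 and 0.690) and Aldoa intron 6 (0.960 and 0.696). Eno1 and Aldoa encode enzymes of glycolysis, and Rps28 a protein of the small ribosomal subunit. Among the nearest to Hba-a1 intron 2 were Rpl36a intron 2 (0.969 and 0.786) and Rps27 intron 3 (0.964 and 0.780), both in genes of ribosomal proteins. Their induced values rest on 23 to 59 reads each.

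Of 10 other globin genes on the list 4 had reads, and 3 introns had the reads to be tested, all of beta-globin genes. All 3 were lower in the induced pool by Fisher's exact test with Benjamini-Hochberg adjustment, with a median change of -0.381 beside a median of 0 over all introns. By that exact test they were Hbb-bs intron 2 (0.966 to 0.353, adjusted p = 2.31e-08), Hbb-bt intron 1 (0.658 to 0.277, adjusted p = 5.33e-06) and Hbb-bt intron 2 (0.744 to 0.384, adjusted p = 0.000140). The theta-globin genes of the alpha cluster, Hbq1a and Hbq1b, went from 0 and 9 to 68 and 159 observations.

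Genes next to the alpha-globin genes gave few reads. Nprl3, whose introns hold enhancers of the alpha-globin genes, went from 3 to 71 observations. Snrnp25, Rhbdf1 and Mpg had 15, 12 and 2 before and 38, 65 and 26 after induction. Il9r had 68 and 22. Polr3k, listed with them, is annotated on chromosome 2 and is no neighbour in the mouse. The 2 introns of this list with the reads for the coSE test were both of Polr3k, so no intron of a gene on chromosome 11 next to the alpha-globin genes was tested.

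Hemoglobin also needs heme, made by the enzymes from Alas2 to Fech, and 9 of 10 assembly genes had reads. Together they went from 1049 to 5626 observations. Of 41 introns tested in 5 of these genes, 0 passed the coSE test (Fisher's exact test with Benjamini-Hochberg adjustment), with a median change of -0.0357. Of 54 introns tested in 4 of the 11 erythroid marker genes, 0 were lower and 1 was higher in the induced pool by the same exact test. Their median change was 0.00306. Of all 4403 introns, that test called 55 lower and 16 higher. The unadjusted p of Fisher's exact test was under 0.05 at 1 of the 41 assembly introns, 6 of the 54 marker introns and 351 of all 4403. The chi-square test called 0 of the 41 and 1 of the 54, and of all introns 10 higher and 55 lower. Whether the genes of these lists differ from the alpha-globin genes was not tested.

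Because reads of both copies became more frequent together, their promoters were compared as well. The RefSeq windows of both copies (GRCm38.p6), which reach from upstream of the start to just past it, overlapped over 297 bases with 0 differences between the copies. The 120 bases that end just before the annotated start of Hba-a2 lie at chr11:32296369-32296488, with motif matches in capitals. The CCAAT box, the erythroid promoter element CACCC and the TATAA of a TATA box were searched on both strands, and no match overlapped another:
Hba-a2 promoter: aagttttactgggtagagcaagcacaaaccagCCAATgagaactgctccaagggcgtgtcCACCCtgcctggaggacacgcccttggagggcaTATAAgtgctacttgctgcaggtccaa
Each motif had 1 match. In the 120 bases before the start of 32851 promoters, CCAAT was found in 21.3%, CACCC in 31.7% and TATAA in 11.8%, on either strand.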

How the data were processed

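The authors deposited 1 table with the count of reads spliced at each intron and the number not spliced, and 1 with a count of spliced reads, the number of splicing intermediates, the fraction NIC, GC content in percent and splice site scores, per the file headers. In all lines NIC was the share of intermediates among intermediates and spliced reads. The submitters' processing notes name the build mm10 and the tools minimap2, SAMtools, bedtools and cutadapt. Their roles, the filters, the scoring program and any use of molecular identifiers are not given in the sources used here. The listed GC content was read as the intron's own.

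Intron positions were matched to GENCODE mouse release 21 on GRCm38 after moving the listed starts by +2 and the ends by -1. This placed 99.96% of introns on annotated introns of their transcript. Here coSE was computed from the counts, with Wilson intervals for shares, Newcombe intervals for differences and exact binomial intervals for ratios of read shares. Two-sided Fisher's exact tests (scipy 1.17.1) ran over all introns or genes with at least 10 reads in the coSE table, or all that the NIC table lists, with Benjamini-Hochberg adjustment at 0.05. Where 0 reads were seen, 3 counts set the upper limit. The tests were tested on simulated data. Named introns were all of Hba-a1 and Hba-a2, the 3 introns nearest in coSE to each Hba-a1 intron, and list introns that passed. Some items that this rule selects are not reported here. The genes called in the NIC comparison of introns, the genes set beside them for intron 1 and the neighbour genes were named after their values were seen. Alternatives covered read minimums, the test, intermediates, spliced reads of the other table and the sum of both copies. The members and lists were chosen with earlier results of these data known.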

Additional observations from a re-analysis of the deposited data

How the results depend on the processing

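No paired analysis was possible because the tables add the replicates together, and for the same reason no replicate could be left out. Of 137 recomputed values, 101 kept their direction and call or stayed within the counting interval. The falls of coSE at both Hba-a1 introns passed under every alternative run. The NIC change of Hba-a1 intron 2 (0.129) had an adjusted p of 0.299 with the chi-square test.

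With intermediates added to the unspliced reads, intron 2 minus intron 1 coSE became 0.00852 in Hba-a1 and -0.0596 in Hba-a2 (induced), and -0.00772 in Hba-a1 (uninduced). Induced intron 2 coSE became 0.688 and 0.549, and Hba-a2 minus Hba-a1 there -0.139.

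With the copies added, induced coSE of Hba-a2 intron 1 became 0.661, and the fold of the read share 20.7 at intron 1 and 12.6 at intron 2. This sum was added after the transcripts of the copies were compared. With spliced reads only, that fold became 11.3 and 8.57 for Hba-a1. The share of Hba-a2 in unspliced reads alone was 50% and 0% uninduced (4 and 2 reads), and 37.1% and 14.5% induced.

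Counts of calls moved. With no minimum, 6 introns rose and 30 fell in coSE, and with the chi-square test 10 rose. That test called 1 NIC rise. Uninduced genes with intron 2 higher in coSE numbered 20 with a minimum of 20 reads and 22 with the spliced reads of the NIC table or with intermediates added, and with intron 2 lower 15 in the first 2 cases. Induced genes with intron 2 higher numbered 18, 18 and 16. Those with intron 2 lower numbered 9 with no minimum, 9 with the chi-square test and 11 with the NIC table's reads. With a minimum of 20 reads, 4 genes were called in NIC between introns. With at least 50 reads over both pools, 178 introns were at least 4-fold higher. Hba-a2 is limited by 17 and 6 uninduced reads.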
